A study of Mus musculus with 8 samples.

Results

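The 8 genes described here, Eomes, Igfbpl1, Dcx, Neurod1, Sox11, Sox4, Hopx and Neurog2, mark successive stages by which new neurons form in the adult hippocampus. They were chosen by symbol for that role, with earlier results of these data known. All 8 were found among the 37310 genes of the count table. The study sequenced hippocampal RNA from 4 mice with the genotype Nr2f1 het, called heterozygotes here, and from 4 wild-type (WT) mice; the labels do not describe the allele. Nr2f1 encodes a nuclear receptor that patterns the developing forebrain. Both genotypes were on the B6.129 F1-hybrid background and untreated, with an age of 3 months and the sex given as male. Each library was labelled as a separate biological replicate with its own animal number. The whole hippocampus was used, so fewer cells of a type and less RNA per cell cannot be told apart.

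In the adult dentate gyrus, radial glia-like stem cells of the subgranular zone give rise to intermediate progenitors, which divide and become neuroblasts, then immature and finally mature granule neurons. Hopx, a homeodomain-only protein without DNA binding of its own, marks quiescent stem cells and is also expressed by astrocytes. Eomes (also known as Tbr2), a T-box transcription factor, and Neurog2, a basic helix-loop-helix factor, mark intermediate progenitors. Neurod1, a related helix-loop-helix factor, is needed for granule neurons to survive and differentiate. Sox4 and Sox11 are closely related HMG-box factors of committed neuronal precursors. Dcx encodes doublecortin, the microtubule-binding protein of migrating neuroblasts, and Igfbpl1 encodes a secreted protein related to the IGF binding proteins that is found in immature neurons.

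Several properties of the libraries bear on what follows. They held 58717305 to 90043971 gene counts, and a count of 0 allowed up to 3 counts, or 0.0332 to 0.0510 CPM, which are counts scaled to a common library size with TMM factors. Nr2f1 was at 53.4, 49.5, 54.1 and 51.6 CPM in WT libraries 1 to 4 and at 32.4, 31.0, 33.5 and 28.5 CPM in heterozygote libraries 1 to 4, with no overlap (log2 fold change -0.73 ± 0.0511 SE, edgeR adjusted p = 7.32e-05). All libraries went against the label male: Xist lay between 463.2 and 601.4 CPM, and 14 Y-linked genes had 3 counts in all. Spike-in ratios showed that odd-numbered and even-numbered libraries received different spike-in mixes in both genotypes. The 6 markers of hippocampal principal neurons summed to 621.2 to 721.7 CPM in heterozygotes and 687.1 to 752.8 CPM in WT, so the labelled tissue was present. Of these 6, only Wfs1 was called, at 0.846 times the WT level (edgeR adjusted p = 0.0362). It was at 307.9 to 365.1 CPM in WT and 272.3 to 299.5 CPM in heterozygotes. The 12 choroid plexus markers summed to 84.7, 1447, 446.4 and 2122 CPM in WT libraries 1 to 4 and to 4116 to 4654 CPM in heterozygotes. WT libraries 1 and 3 were therefore the lowest in that tissue's RNA, and WT libraries 2 and 4 also lay below every heterozygote.

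Promoter windows of the members are shown first because 3 of the 7 members with a window in RefSeq carry the same core element at nearly the same place. Windows span 250 bases before to 50 after the annotated start, on GRCm38.p6, a later build than the one used for the counts. The TATA-type motif TATATAA, searched on both strands and chosen after the sequences were seen, was found in Eomes, Neurod1 and Neurog2, with its first base at -30, -31 and -29 from the start. It was present in 3.24% of all 32851 windows. Capitals mark TATATAA and the helix-loop-helix motif CANNTG in these windows.
Eomes, chr9:118477939-118478238, plus strand: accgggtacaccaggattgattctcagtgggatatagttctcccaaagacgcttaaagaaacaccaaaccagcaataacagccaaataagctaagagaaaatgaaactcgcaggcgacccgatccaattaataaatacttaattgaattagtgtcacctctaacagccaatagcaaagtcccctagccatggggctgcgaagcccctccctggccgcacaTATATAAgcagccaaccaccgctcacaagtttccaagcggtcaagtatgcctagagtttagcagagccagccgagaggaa
Neurod1, chr2:79456587-79456886, minus strand: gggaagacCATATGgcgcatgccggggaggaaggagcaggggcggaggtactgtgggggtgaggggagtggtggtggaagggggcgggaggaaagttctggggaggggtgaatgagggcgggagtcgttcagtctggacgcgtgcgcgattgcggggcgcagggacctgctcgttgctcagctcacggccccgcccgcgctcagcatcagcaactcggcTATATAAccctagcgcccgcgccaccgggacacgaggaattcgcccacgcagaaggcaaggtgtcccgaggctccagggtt
Neurog2, chr3:127632886-127633185, plus strand: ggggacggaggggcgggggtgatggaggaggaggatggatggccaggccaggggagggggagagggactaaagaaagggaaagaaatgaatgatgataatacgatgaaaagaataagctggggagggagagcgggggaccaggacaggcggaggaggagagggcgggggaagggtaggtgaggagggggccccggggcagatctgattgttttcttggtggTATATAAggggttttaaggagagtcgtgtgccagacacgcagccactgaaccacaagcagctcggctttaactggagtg
Of these 3 genes Eomes was called higher in heterozygotes, Neurod1 was not called, and Neurog2 was too low to test. The window of Sox4 is given because it was the only one of the 7 members with AGGTCA, the half-site bound by nuclear receptors such as Nr2f1. AGGTCA, searched on both strands, was present in 16.3% of all windows, and lay here with its first base at -162 from the start. Capitals mark AGGTCA and CANNTG.
Sox4, chr13:28953650-28953949, minus strand: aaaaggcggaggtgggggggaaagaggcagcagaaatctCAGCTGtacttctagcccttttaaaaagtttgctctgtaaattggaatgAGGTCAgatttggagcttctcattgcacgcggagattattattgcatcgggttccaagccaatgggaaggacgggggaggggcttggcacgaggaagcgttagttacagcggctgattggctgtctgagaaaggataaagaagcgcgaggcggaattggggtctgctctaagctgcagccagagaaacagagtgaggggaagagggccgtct
CANNTG was present in windows of 4 of the 7 members (Neurod1, Sox11, Sox4 and Hopx) and in 72.3% of all windows. It did not overlap either of the other motifs in any member's window. These matches are letters in a window and were not measured as bound sites.

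Eomes and Igfbpl1 were higher in Nr2f1 heterozygotes, while no difference was detected for Dcx, Neurod1, Sox11, Sox4 or Hopx. Heterozygotes had 5.16 times the WT level of Eomes and 2.20 times that of Igfbpl1, and the fold lay between 0.956 and 1.13 for the other 5 tested members. Of the 8 members, 7 passed the filter on low counts, each of them in the 4 libraries of either genotype taken alone, and Neurog2 did not pass. An edgeR adjusted p under 0.05 over all 17913 genes tested was reached by 2 of the 7, both higher, where 2.99% of all tested genes were called in either direction 2.62% were called higher and 0.368% lower. The CPM ranges of the genotypes did not overlap for the same 2 members, against 10.6% of all tested genes (6.99% higher and 3.59% lower in heterozygotes). Because the members were chosen with earlier results of these data known, these shares give scale only and do not test the set. The median log2 fold change of the 7 was 0.13, and that of all tested genes -0.0056.

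**Figure D1:**
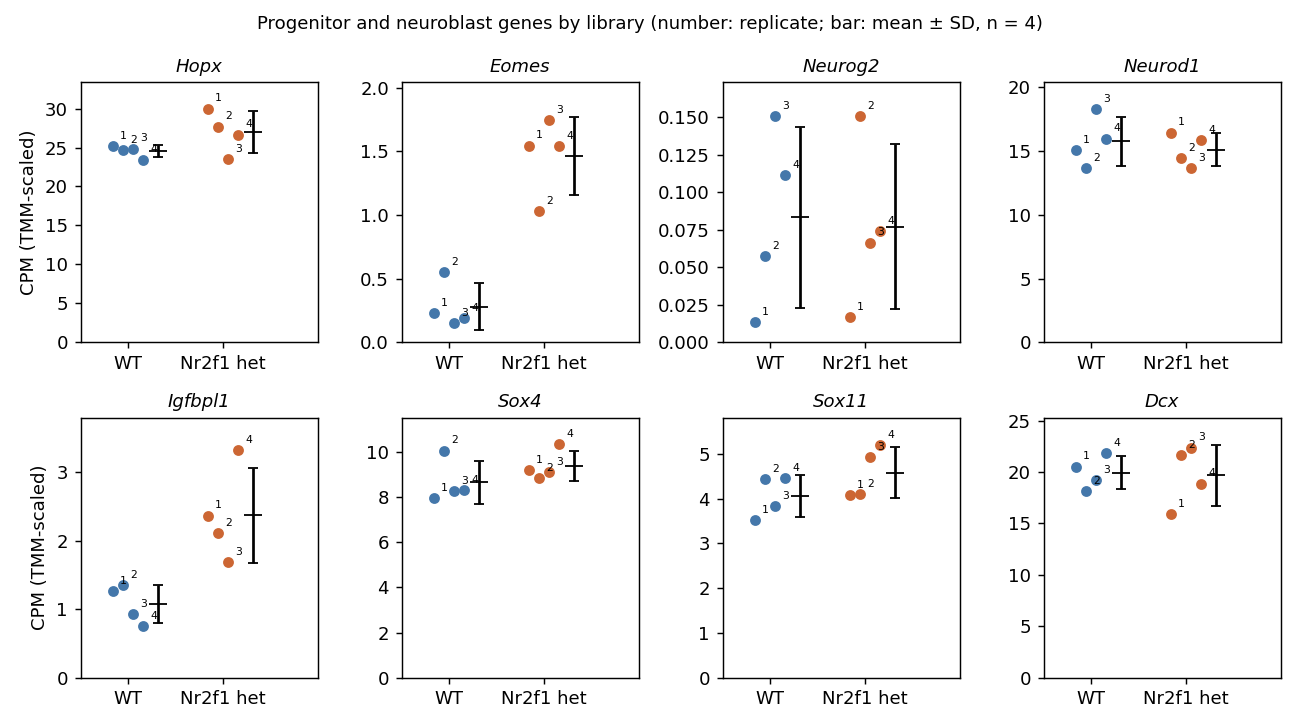
CPM of the 8 genes in each library, with WT in blue and Nr2f1 het in orange, the replicate number beside each point and the mean ± SD (n = 4) as a bar. Eomes and Igfbpl1 are the genes whose genotypes do not overlap, and the highest WT Eomes value, 0.553 CPM, is that of library 2.

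At the stem cell stage, Hopx was at 25.2, 24.7, 24.9 and 23.4 CPM in WT libraries 1 to 4 and at 30.0, 27.7, 23.5 and 26.7 CPM in heterozygote libraries 1 to 4. Heterozygote libraries 1, 2 and 4 lay above the WT range and library 3 lay within it. The log2 fold change was 0.13 ± 0.0640 (SE), with a 95% interval of -0.0074 to 0.27 (edgeR adjusted p = 0.318). Hopx varied little among WT mice, with a coefficient of variation of 3.13%, against 9.95% among heterozygotes. Astrocytes express Hopx as well; their 6 markers summed to 1278 to 1316 CPM in WT and 1233 to 1358 CPM in heterozygotes, and 0 of the 6 were called by edgeR, of which 2 (Aqp4 and Fgfr3) had an unadjusted p under 0.05. Exons of Hopx share 27.2% of their length with the antisense gene Hopxos in the GENCODE M21 annotation. The reads carry no strand, so reads of that stretch cannot be assigned to one of the pair; Hopxos itself had 97 counts over the 8 libraries.

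Among genes of intermediate progenitors, Eomes showed the widest separation. Eomes had 17, 48, 12 and 17 counts in WT libraries 1 to 4, or 0.227, 0.553, 0.150 and 0.189 CPM. Heterozygote libraries 1 to 4 had 91, 82, 158 and 125 counts, or 1.55, 1.03, 1.75 and 1.54 CPM. Every heterozygote lay above every WT mouse, and library 2 was the highest of WT and the lowest of the heterozygotes. The mean was 1.47 ± 0.307 CPM in heterozygotes and 0.280 ± 0.185 CPM in WT (SD, 4 mice each). The log2 fold change was 2.37 ± 0.317 (SE), with a 95% interval of 1.68 to 3.06 (edgeR adjusted p = 0.00436), rank 27 by p among the 17913 genes. An exact two-sided permutation test of CPM gave p = 0.0286, the smallest that 4 against 4 allows.

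The size of the Eomes difference varied with the libraries compared. Libraries 1 and 3 of each genotype, which shared a spike-in mix, gave 3.15 on the log2 scale with an edgeR adjusted p of 0.00217. Libraries 2 and 4 gave 1.80 with an edgeR adjusted p of 0.194. The difference between those estimates was -1.34 and did not pass its own test, an interaction term in edgeR (adjusted p = 0.958 over all genes). Without WT libraries 1 and 3, which were lowest in choroid plexus RNA, Eomes passed at a log2 fold change of 1.99 (edgeR adjusted p = 0.0350). That fit does not even out the tissues. WT libraries 2 and 4 had choroid plexus marker sums of 1447 and 2122 CPM, against 4116 to 4654 CPM in heterozygotes. Their ependymal marker sums were 20.7 and 19.7 CPM, against 29.8 to 45.3 CPM in heterozygotes. Eomes kept its call when each library was left out in turn, with log2 fold changes of 2.17 to 2.96; the largest came without WT library 2. An antisense gene, Gm33460, shares 2.84% of the exon length of Eomes in GENCODE M21.

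Neurog2, which acts just before or with Eomes in this lineage, was close to the limit of detection. It had 1, 5, 12 and 10 counts in WT libraries 1 to 4 and 1, 12, 6 and 6 counts in heterozygote libraries 1 to 4. In CPM the WT libraries ran from 0.0133 to 0.150 and the heterozygotes from 0.0170 to 0.150, so the ranges coincided. An exact two-sided permutation test of CPM gave p = 0.971. With no filter on low counts the log2 fold change was -0.070 ± 0.607 (SE, edgeR adjusted p = 0.988). A difference in Neurog2 was not detectable at this depth.

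Neurod1, the next factor in the sequence, was at 15.1, 13.7, 18.3 and 16.0 CPM in WT libraries 1 to 4 and at 16.4, 14.4, 13.6 and 15.9 CPM in heterozygote libraries 1 to 4. No heterozygote exceeded the highest WT mouse, and the ranges largely covered each other. The log2 fold change was -0.065 ± 0.0887 (SE), with a 95% interval of -0.26 to 0.13 (edgeR adjusted p = 0.768). In GENCODE M21 the exons of Neurod1 share 7.37% of their length with Cerkl on the same strand and 5.64% with the noncoding gene Gm26755 on the other.

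The SOXC factors Sox4 and Sox11 gave small positive values that did not pass the test. Sox11 was at 3.52, 4.44, 3.82 and 4.45 CPM in WT libraries 1 to 4 and at 4.08, 4.10, 4.92 and 5.19 CPM in heterozygote libraries 1 to 4. All 4 heterozygotes lay above the WT mean, and libraries 3 and 4 above the WT range. Its log2 fold change was 0.18 ± 0.113 (SE), with a 95% interval of -0.069 to 0.42 (edgeR adjusted p = 0.469). Sox4 was at 7.96, 10.1, 8.27 and 8.33 CPM in WT and at 9.19, 8.85, 9.10 and 10.3 CPM in heterozygote libraries 1 to 4. WT library 2 lay above 3 of the 4 heterozygotes. The log2 fold change of Sox4 was 0.11 ± 0.0850 (SE), with a 95% interval of -0.071 to 0.30 (edgeR adjusted p = 0.545). Both signs turned with a tissue score in the model: adjusted for the choroid plexus score, the mean centred level of its markers, the values were -0.044 for Sox11 and -0.0076 for Sox4. The noncoding gene Gm26735, on the other strand, covers 54.6% of the exon length of Sox4 in GENCODE M21, so part of the Sox4 signal cannot be assigned to a strand. Sox11 has no overlapping exon there.

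Igfbpl1 and Dcx are both genes of young neurons, and of the pair Igfbpl1 was called. Igfbpl1 was at 1.27, 1.35, 0.927 and 0.756 CPM in WT libraries 1 to 4 and at 2.36, 2.11, 1.68 and 3.32 CPM in heterozygote libraries 1 to 4. The groups did not overlap; heterozygote library 4 was the highest and WT library 4 the lowest. The mean was 2.37 ± 0.693 CPM in heterozygotes and 1.07 ± 0.279 CPM in WT (SD, 4 mice each). The log2 fold change was 1.14 ± 0.244 (SE), with a 95% interval of 0.60 to 1.67 (edgeR adjusted p = 0.0309). An exact two-sided permutation test of CPM gave p = 0.0286, the smallest possible.

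The call of Igfbpl1 lay near the threshold. It was lost when WT library 1 or 3 was left out (edgeR adjusted p = 0.0703 and 0.104) and without heterozygote library 1, 2 or 4 (edgeR adjusted p = 0.0720, 0.0502 and 0.0574). With each of the 8 libraries left out in turn the log2 fold change stayed between 0.91 and 1.29. Without WT libraries 1 and 3 together it was 1.16 (edgeR adjusted p = 0.205). Libraries 1 and 3 of each genotype gave 0.85 with an edgeR adjusted p of 0.171. Libraries 2 and 4 gave 1.37 with an edgeR adjusted p of 0.214.

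Dcx was at 20.5, 18.1, 19.2 and 21.9 CPM in WT libraries 1 to 4 and at 15.9, 21.6, 22.4 and 18.9 CPM in heterozygote libraries 1 to 4. Heterozygote library 1 was the lowest of all 8 and library 3 the highest, so the heterozygotes enclosed the WT range. The log2 fold change was -0.0094 ± 0.101 (SE), with a 95% interval of -0.23 to 0.22 (edgeR adjusted p = 0.977). The interval excludes a change of the size seen for Eomes or Igfbpl1. Among the 5 tested members that did not pass, Dcx had the widest spread among heterozygotes, with a coefficient of variation of 15.0% against 8.12% in WT.

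**Figure D2:**
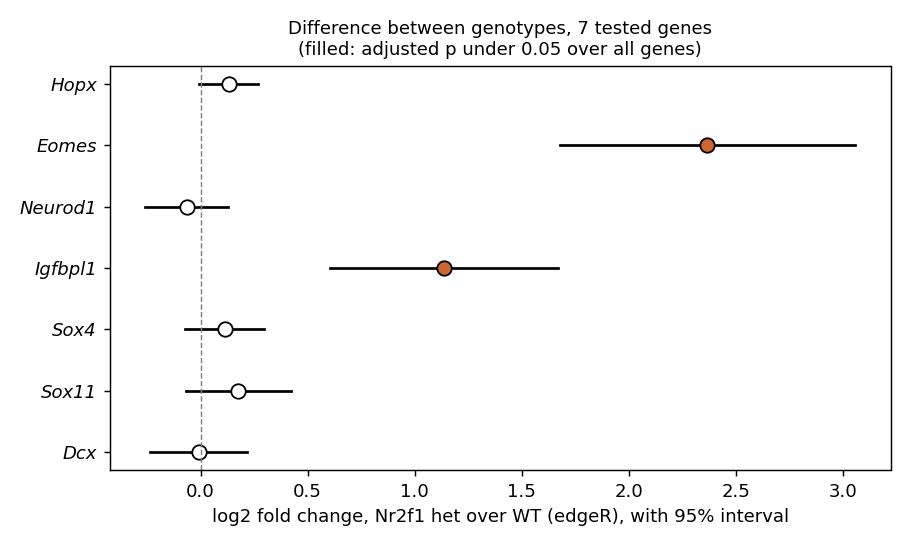
Log2 fold change of Nr2f1 het over WT for the 7 tested genes, in the order of the stages, with the 95% interval of the edgeR fit as a line. The filled points, Eomes at 2.37 and Igfbpl1 at 1.14, passed an adjusted p of 0.05 over all genes, and the intervals of the other 5 include 0.

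Ratios between members within a library do not depend on how libraries are scaled. All 21 pairs of the 7 tested members were compared on the log2 ratio with a two-sided exact permutation test, a comparison added after the values were seen. The genotypes did not overlap in 10 pairs, each with p = 0.0286, the smallest possible, and an adjusted p of 0.0600 over the 21, so none passed 0.05 after adjustment in these exact tests. All 6 pairs with Eomes were among them. Each of the 10 pairs holds Eomes or Igfbpl1, whose CPM ranges already did not overlap, so the pairs are not independent results. Since no pair could reach a smaller p, the adjusted p reflects only how many pairs reached it. The log2 ratio of Eomes to Neurod1 was -5.93 ± 0.950 in WT and -3.38 ± 0.344 in heterozygotes (SD, n = 4 each). The ratio of Eomes to Dcx moved from -6.27 ± 0.866 to -3.75 ± 0.442 (SD, n = 4 each). The ratio of Eomes to Igfbpl1 was higher in heterozygotes by 1.37 on the log2 scale. Of the other 5 pairs with Igfbpl1, 4 did not overlap; its ratio to Sox11 did (exact permutation p = 0.0571). None of the 10 pairs among Dcx, Neurod1, Sox11, Sox4 and Hopx separated the genotypes; their smallest exact permutation p was 0.114.

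Levels can be compared between genes only per length, here as CPM per kilobase of exon with lengths from GENCODE M21, which is on a later build than the counts. In WT the order was Hopx at 16.2, Neurod1 at 5.77, Sox4 at 1.81, Dcx at 1.58, Sox11 at 0.488, Igfbpl1 at 0.331, Eomes at 0.0673 and Neurog2 at 0.0373 CPM per kilobase. Neighbours in that order whose 4 WT libraries overlapped were Sox4 with Dcx and Eomes with Neurog2. In heterozygotes Igfbpl1, at 0.728 CPM per kilobase, stood above Sox11 at 0.550, with overlapping ranges of 0.517 to 1.02 and 0.491 to 0.625. Eomes reached 0.353 CPM per kilobase there, from 0.248 to 0.421 by library, and no longer overlapped Neurog2, at 0.00763 to 0.0676.

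**Figure D3:**
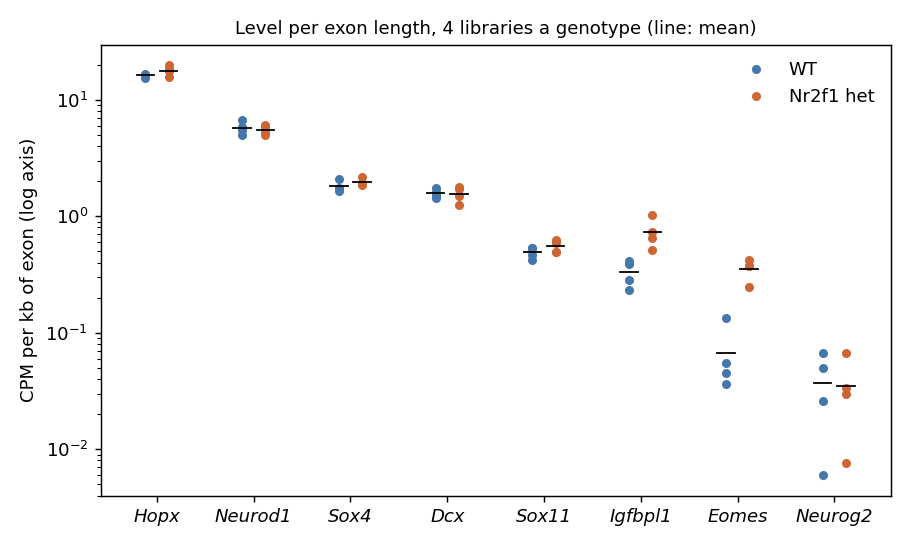
Level of each gene per exon length in CPM per kilobase on a log axis, with WT in blue, Nr2f1 het in orange, 1 point a library and the mean as a line. Hopx lies highest at 16.2 and Neurog2 lowest at 0.0373 in WT, and Eomes is the gene with the widest gap between the genotypes.

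The other genes of the pathway were taken from 6 lists, which together held 73 tested genes. Of these, 5 were called over all genes, 4 higher and 1 lower, against 2.62% higher and 0.368% lower among all tested genes. An unadjusted edgeR p under 0.05, in either direction, was reached by 17.2% of all tested genes. By list it was reached by 5 of 13 stem cell genes (38.5%) and 1 of 10 proneural genes (10%). For S phase and mitosis it was 4 of 11 (36.4%), and for immature neurons 6 of 22 (27.3%). Mature granule neurons had 1 of 6 (16.7%) and niche signals 2 of 11 (18.2%). In libraries 2 and 4 alone, 0 of the 73 genes were called by edgeR. The same held in models that carried either tissue score (choroid plexus or ependymal). In the stem cell list 2 of 13 tested genes rose and 0 fell, with a list median log2 fold change of 0.15. Vim, an intermediate filament gene of radial glia, rose from 33.8 ± 4.25 to 47.2 ± 1.80 CPM (SD, n = 4 each; edgeR adjusted p = 0.0108). Its log2 fold change was 0.48, and 0.24 and 0.070 with the choroid plexus and the ependymal score (edgeR adjusted p = 0.589 and 0.970). Id3, an inhibitor of helix-loop-helix factors, rose 1.20-fold (edgeR adjusted p = 0.0457), and lost its call without any 1 of WT libraries 1 and 3 or heterozygote libraries 1, 2 and 3. Its log2 fold change was 0.26, and 0.100 and 0.075 with the same scores (edgeR adjusted p = 0.902 and 0.979). Nes and Sox2, which define neural stem cells, had folds of 1.11 and 1.14 and did not pass (edgeR adjusted p = 0.560 and 0.138).

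The proneural list, which holds genes of intermediate progenitors beyond the members, had 0 of 10 tested genes called by edgeR, and 0 by the DESeq2 Wald test, and a median log2 fold change of 0.089. The lowest p in it, and the only one under 0.05 unadjusted, was that of Hes6, which averaged 9.88 ± 0.297 CPM in WT and 11.1 ± 1.30 CPM in heterozygotes (SD, n = 4 each; edgeR adjusted p = 0.281). Mfng, a Notch glycosyltransferase gene, followed at a fold of 1.18 (edgeR adjusted p = 0.338).

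In the S phase and mitosis list 1 of 11 tested genes rose, and the median log2 fold change was 0.27. The value was positive in 10 of the 11 and negative in 1. CPM ranges did not overlap for 2, both higher in heterozygotes, against 6.99% of all tested genes. These were Cdk1 and Aurkb, named after its values were seen, which had a fold of 2.51 and did not pass (edgeR adjusted p = 0.112). Cdk1, the kinase that drives entry into mitosis, rose from 0.248 ± 0.0888 to 0.813 ± 0.0613 CPM (SD, n = 4 each; edgeR adjusted p = 0.00602), a fold of 3.21. Its log2 fold change was 1.68, and 0.96 and 0.80 with the choroid plexus and the ependymal score (edgeR adjusted p = 0.722 and 0.952). Mki67 and Top2a, the usual markers of dividing cells, had folds of 1.21 and 1.52 and did not pass (edgeR adjusted p = 0.370 and 0.156).

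Of 22 genes of neuroblasts and immature neurons beyond the members, 1 rose and 0 fell, with a median log2 fold change of -0.036. Calb2, which encodes calretinin and marks immature granule neurons but also interneurons and Cajal-Retzius cells, rose 1.41-fold (edgeR adjusted p = 0.0449). Its call was lost without any 1 of WT libraries 1, 2 and 4 or heterozygote libraries 1, 3 and 4, and with no filter on low counts (edgeR adjusted p = 0.0863). The count for this list depended on the fit: 0 rose and 1 fell with no filter, 3 rose and 0 fell with the spike-in mix as a term, and DESeq2 called 3 higher and 1 lower. Cd24a and St8sia2, genes of migrating neuroblasts, chosen after their values were seen, had folds of 1.50 and 1.60 and did not pass (edgeR adjusted p = 0.0626 and 0.119). Prox1, the defining factor of granule neurons, averaged 58.3 ± 7.45 CPM in WT and 56.8 ± 4.48 CPM in heterozygotes (SD, n = 4 each).

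Among 6 genes of mature granule neurons, 1 fell. Tdo2, which encodes tryptophan dioxygenase, fell from 4.98 ± 0.719 to 3.26 ± 0.398 CPM (SD, n = 4 each; edgeR adjusted p = 0.0252), and lost its call when library 1 or 3 of either genotype was left out. With the choroid plexus and the ependymal score its log2 fold change was -0.30 and -0.32, from -0.60. The list median was -0.029. Of 11 niche signal genes 0 were called by edgeR; 2 had an unadjusted p under 0.05, a share near that of all tested genes, and DESeq2 called 1. Those 2 were the ligand genes Bmp4, at a fold of 1.41 (edgeR adjusted p = 0.106), and Vegfa, at a fold of 1.06 (edgeR adjusted p = 0.291).

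**Figure D4:**
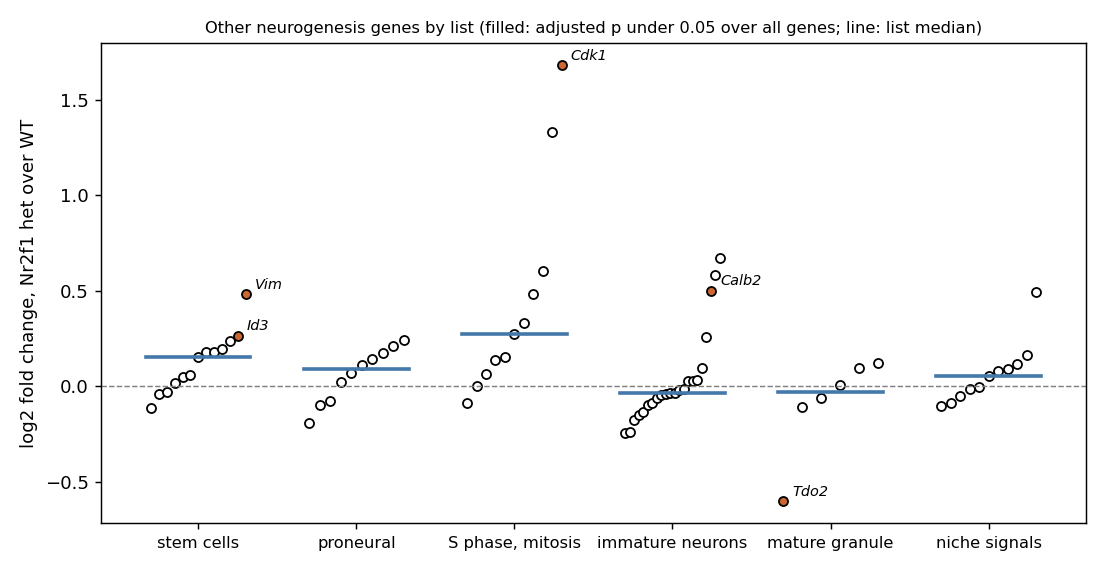
Log2 fold change of each tested gene in the 6 pathway lists, sorted within a list, with the list median as a line. Filled points passed an adjusted p of 0.05 over all genes; Cdk1 is the highest at 1.68, and Tdo2 is the only filled point below 0.

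RNA of tissues next to the hippocampus moved with genotype, as did Eomes and Igfbpl1. For the choroid plexus, 12 of 12 markers did not overlap between genotypes and all were higher in heterozygotes, although 0 were called by edgeR and 11 had an unadjusted p under 0.05. For the ependyma, 6 of 6 did not overlap and 4 were called, with sums of 10.4 to 20.7 CPM in WT and 29.8 to 45.3 CPM in heterozygotes. No choroid plexus or ependymal marker was at 0 in all libraries. Meningeal fibroblast markers summed to 86.9 to 225.0 CPM in WT and 311.2 to 365.3 CPM in heterozygotes, with 0 of 6 called by edgeR and 4 at an unadjusted p under 0.05. Much of these sums came from Igf2 alone, at 43.1 to 156.4 CPM in WT and 229.2 to 271.0 CPM in heterozygotes. The 3 markers of striatal projection neurons did not overlap between genotypes either, with sums of 40.1 to 47.5 CPM in WT and 58.3 to 90.6 CPM in heterozygotes. Of these Ppp1r1b rose 1.60-fold (edgeR adjusted p = 0.0471), while Drd2 and Adora2a had folds of 1.86 and 2.81 and did not pass (edgeR adjusted p = 0.123 and 0.0621).

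Within genotypes the member levels and these sums lined up in some cases and not in others. In WT libraries 1 to 4, choroid plexus sums of 84.7, 1447, 446.4 and 2122 CPM stood beside Eomes at 0.227, 0.553, 0.150 and 0.189 CPM. The WT library highest in Eomes, library 2, had the second-highest choroid plexus sum and the highest ependymal sum, and the one with the highest choroid plexus sum had low Eomes. The average Eomes level was 0.371 CPM over WT libraries 2 and 4, and over WT libraries 1 and 3 it was 0.188 CPM. Among heterozygotes Eomes was lowest in library 2, where the choroid plexus sum was highest. Igfbpl1 was lowest in WT library 4, but among heterozygotes it ranked as the ependymal sums did, which were 35.9, 34.5, 29.8 and 45.3 CPM in libraries 1 to 4. The striatal sum was also highest in heterozygote library 4, the library highest in Igfbpl1.

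Fits that carried the choroid plexus score gave log2 fold changes of 2.06 for Eomes and 1.36 for Igfbpl1 (edgeR adjusted p = 0.577 and 0.633). Those that carried the ependymal score gave 1.70 and 0.55 (edgeR adjusted p = 0.949 and 0.962). Of the variance of these scores 59.5% and 77.4% lay between the genotypes, so tissue and genotype cannot be told apart in these fits, which called 1 and 0 genes in all by edgeR, with 1166 and 894 at an unadjusted p under 0.05. The part of these tissues in the member results was not tested further.

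**Figure D5:**
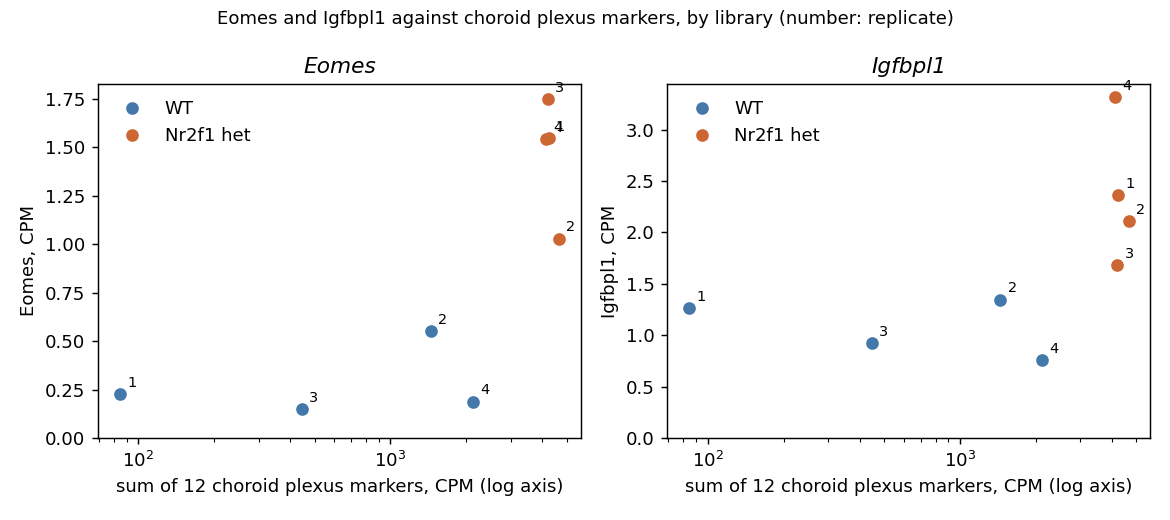
Eomes (left) and Igfbpl1 (right) in CPM against the summed CPM of 12 choroid plexus markers on a log axis, 1 point a library, WT in blue and Nr2f1 het in orange, with replicate numbers. The WT libraries span 84.7 to 2122 CPM on the horizontal axis, with Eomes at 0.150 to 0.553 CPM. Heterozygotes span 4116 to 4654 CPM, with Eomes at 1.03 to 1.75 CPM, so the genotypes do not overlap on either axis.

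Further cell types were looked at by their defining markers. Among them, T and natural killer cells and olfactory bulb mitral and tufted cells express Eomes. T and natural killer cell markers summed to at most 0.136 CPM in any library. Tbx21, a marker of olfactory bulb mitral and tufted cells, was at 0.0251 to 0.100 CPM in WT and 0.0376 to 0.136 CPM in heterozygotes. Cdhr1, the other mitral and tufted cell marker, was at 18.1 to 21.2 CPM in WT and 17.6 to 24.6 CPM in heterozygotes, so this list did not show those cells absent. Of 3 cerebellar granule cell markers, Gabra6 and Atoh1 had 0 counts in all 8 libraries and Cbln3 had 9 to 43. Of 7 Cajal-Retzius markers 2 rose, Trp73 at 1.43-fold and Ebf3 at 2.36-fold (edgeR adjusted p = 0.0184 and 0.00444), and 5 did not pass: Lhx5 at 1.72, Lhx1 at 1.46, Ndnf at 1.01, Reln at 0.946 and Nhlh2 at 0.891. That list summed to 143.2 to 165.1 CPM in WT and 137.1 to 164.4 CPM in heterozygotes, mostly from Reln. Its score, in which genes weigh equally, was -0.43 to 0.0145 in WT and 0.078 to 0.34 in heterozygotes, with no overlap, and the list median log2 fold change was 0.52. None of its members was at 0 in all libraries, and its part in the Eomes difference was not tested.

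Genes whose pattern over the 8 libraries was most like that of Eomes were Lbhd2, Ccdc180 and Lrrc74b. Likeness was the mean absolute difference of log2 CPM, each gene centred on its own mean, among 13207 named genes of at least 1 CPM. The differences were 0.289, 0.388 and 0.432, in that order, and the genes rose 3.87-fold, 2.95-fold and 3.10-fold. Lbhd2, the nearest, was at 0.413, 1.01, 0.401 and 0.512 CPM in WT libraries 1 to 4 and at 1.55, 1.72, 3.29 and 2.38 CPM in heterozygote libraries 1 to 4. Like Eomes it was highest among WT mice in library 2 and highest among heterozygotes in library 3. For Igfbpl1 the nearest were Cdhr3, Glp1r and Iqca, at 0.207, 0.219 and 0.221. Cdhr3 rose 1.98-fold, Glp1r 1.63-fold and Iqca 2.25-fold. Since likeness was ranked over the same libraries, these genes were bound to differ between genotypes as well.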

How the data were processed

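Per the labels, cDNA was made from 10 ng of total hippocampal RNA with a NuGEN Ovation kit, which does not mark strand, and spiked with ERCC Mix 1 or 2. The authors deposited raw read counts per Ensembl gene; the submitters' processing notes list STAR 2.4.2a, HTSeq, FastQC and DESeq2 and the builds mm9 and NCBIM37. Alignment and counting settings are not given in these sources. Library sizes and tests left out the 92 spike-in rows. Symbols from GENCODE M21 matched 32620 of 37310 identifiers and 147 of 148 listed genes.

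Counts were scaled by TMM, filtered with filterByExpr (minimum count 10, total 15) and tested by quasi-likelihood in edgeR 4.0.16 (R 4.3.3), robust and two-sided, with Benjamini-Hochberg adjustment over all genes and a threshold of 0.05. SE is the log2 fold change over the root of F; intervals are at 95%. Limits at 3 counts cover only counting error: amplified reads carried no molecular identifiers and need not be independent. Scores are mean log2 CPM (1 count added) of a marker list, each gene centred over the 8 libraries. The edgeR step was tested on simulated data.

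The members, the lists and the alternatives were chosen with earlier results of these data known. Named are all members, Nr2f1, up to 4 called genes of each pathway list (otherwise the 2 of lowest p), and the 3 genes most like each called member; others are marked or are defining markers. Alternatives used limma 3.58.1 (voom), DESeq2 1.42.0, other scalings and filters, covariates and libraries left out. No pair of libraries of a genotype matched within sampling noise (chi-square per degree of freedom 7.42 to 25.0).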

Additional observations from a re-analysis of the deposited data

Results flagged for a closer look

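Mfng, a gene of the proneural list, was at 2.36 CPM in heterozygote library 3, away from the other 3 heterozygotes, of which the nearest was at 2.73 CPM; that gap took 0.864 of the group's range. It was the only such case in 36 groups of 4 libraries (18 genes in each genotype), where chance gives about 1 in 20.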

How the results depend on the processing

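Over 22 alternatives Eomes and Igfbpl1 stayed positive, and the call of Eomes held in 19 and that of Igfbpl1 in 10. The reported test called 535 genes (469 higher, 66 lower), 2 members and 5 pathway genes. Spike-in scaling gave 185 (184 higher, 1 lower), 1 and 0, with Igfbpl1 at 1.23 and Nr2f1 at -0.64, no longer called; the mixes differ between libraries. DESeq2 called 1200 genes (911 higher, 289 lower) and 9 pathway genes, and a filter of 1 CPM left 3 pathway genes called. Libraries 2 and 4 alone gave 78, 0 and 0, with Eomes at 1.80 and Igfbpl1 at 1.37; libraries 1 and 3 alone gave 1 member, with Igfbpl1 at 0.85. The choroid plexus score gave 1, 0 and 0 (Eomes 2.06, Igfbpl1 1.36), and the ependymal score 0, 0 and 0 (Eomes 1.70, Igfbpl1 0.55, Nr2f1 -0.55). Without WT libraries 1 and 3 the counts were 170, 1 and 2, with Igfbpl1 at 1.16. Leaving out each library in turn gave 171 to 767 genes, 1 to 2 members and 2 to 6 pathway genes, with Igfbpl1 at 0.91 to 1.29. For these changes the cause was not tested.

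Members that were not called changed sign as follows. Dcx was 0.0028 with upper quartile scaling, 0.10 with spike-in scaling, 0.017 in libraries 2 and 4 and 0.11 with the ependymal score, and -0.078 to 0.078 with each library left out. Neurod1 was 0.025 with spike-in scaling, 0.032 in libraries 2 and 4, 0.044 with the ependymal score, 0.016 without WT libraries 1 and 3, and -0.12 to 0.012 with each library left out. With the choroid plexus and ependymal scores Sox11 was -0.044 and -0.20, and Sox4 -0.0076 and -0.21.

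No pairing of mice by replicate number was detected: deviations of same-numbered libraries correlated at -0.088 to 0.023. With so few libraries this check cannot show that pairing was absent. With the replicate block 406 genes and 1 member were called, with Igfbpl1 at 1.15 (edgeR adjusted p = 0.0536) and Eomes at 2.36. The block also ended the calls of Id3 and Tdo2 (edgeR adjusted p = 0.0681 each), and the immature neuron list then had 3 called. Depth limited Neurog2, which had at most 12 counts in a library.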

Other observations

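Genes of the subventricular and olfactory interneuron lineage, the other site of adult neurogenesis, had a positive log2 fold change in 6 of 6 and a list median of 0.33. Of all 17913 tested genes, 8573 had a positive value. All 6 had an unadjusted edgeR p under 0.05, against 17.2% of all tested genes. CPM ranges did not overlap for 4 of the 6, all higher in heterozygotes, against 6.99% of all tested genes. Dlx2, a homeobox gene of that lineage and of interneurons, was called, and averaged 5.01 ± 0.169 CPM in WT and 6.80 ± 0.651 CPM in heterozygotes (SD, n = 4 each; edgeR adjusted p = 0.0153). Dlx1, Sp8 and Sp9 did not overlap between genotypes and did not pass (edgeR adjusted p = 0.130, 0.0811 and 0.108). The summed level of the 6 genes was 53.8 to 58.8 CPM in WT and 62.6 to 68.3 CPM in heterozygotes. Neuroblasts of that lineage express Dcx, Sox11 and Igfbpl1, and of these Igfbpl1 alone was called here.

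Oligodendrocyte precursors, which express Sox4 and Sox11 as they commit, gave 0 of 5 markers called by edgeR, 2 of them with an unadjusted p under 0.05, and a list median of -0.038.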
